A study of Mus musculus with 6 samples.

Results

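Transcripts of cytochrome c oxidase were examined in RNA sequencing of mouse testes. The genes were chosen by symbol: every gene whose name in the deposited tables begins with Cox and a digit, which gave 27 of 24411 genes. They are 17 genes for nuclear-encoded subunits and their tissue isoforms, 9 genes for assembly factors, and Cox7a2l. The last is classed as a factor that joins respiratory complexes into supercomplexes, and its activity in these mice was not measured. The study compared 3 libraries labelled DKO (genotype MRP5-/- and MRP9-/-, called a double knockout in the design text) with 3 labelled WT (Wildtype). All 6 came from testes of C57BL/6 mice described as age matched, with no age given. MRP5 and MRP9 are older names of Abcc5 and Abcc12, membrane transporters of the ABCC family (synonyms in RefSeq, GRCm38.p6). The labels do not describe how the alleles were made, and no tissue-restricted Cre or transgene is named. The design text speaks of 3 Wildtype mice but no label ties a library to an animal, so p-values measure the spread between these libraries, which may be technical in part.

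Cytochrome c oxidase, or complex IV, is the last enzyme of the mitochondrial respiratory chain. It takes electrons from cytochrome c, passes them to oxygen and pumps protons across the inner membrane. Its catalytic core is encoded by mitochondrial DNA, and the surrounding subunits are encoded in the nucleus. Several of these surrounding subunits exist as alternative isoforms: a ubiquitous form, a form of heart and skeletal muscle, a lung form of subunit 4, and testis forms of subunits 6b, 7b and 8. Germ cells also use a testis form of cytochrome c, encoded by Cyct. None of the 3 mitochondrially encoded subunit genes (mt-Co1, mt-Co2 and mt-Co3) was matched, and these are not analysed here.

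The libraries labelled DKO held 42673615 to 67131103 expected counts and those labelled WT 26753721 to 31745969. The mean length of the sequenced fragments was 275 to 317 bases in libraries labelled DKO and 230.4 to 258 bases in those labelled WT, so both properties differed between the groups without overlap. Fragment length matters here because the transcripts are short: the 24 tested genes had a median length of 630.5 bases, against 2623 bases for all 17110 tested genes. A long fragment has fewer possible positions on a short transcript. Of the targeted genes, Abcc12 was at 26.6 ± 0.978 TPM in libraries labelled DKO and 56.7 ± 1.54 TPM in those labelled WT (SD, n = 3 each). Abcc5 was not lower in libraries labelled DKO (4.61 ± 0.200 TPM) than in those labelled WT (3.66 ± 0.346 TPM; SD, n = 3 each). On expected counts it was higher (log2 fold change 0.56; edgeR adjusted p = 0.0225). A fit with a term for fragment length on each transcript, described below, also called it higher (log2 fold change 0.38; edgeR adjusted p = 0.0333). Limma on log2(TPM + 1) did not call it (adjusted p = 0.107). Its listed transcript length varied from 4830.9 to 5604.5 bases between libraries. The alleles are not described, so the transcript level alone cannot decide whether the label holds for this gene. For this reason the groups are named by their labels. Defining germ cell markers were abundant in every library, with a summed level of at least 22458 TPM for 6 round spermatid markers. Of 4 epididymis markers, Lcn5 and Lcn8 were listed at 0 in every library.

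The levels of the subunits were compared in TPM, transcripts scaled to the same total in every library, a unit that divides by the effective length of each transcript and so allows comparison between genes. In the libraries labelled WT, the gene with the highest level was Cox8c, the testis form of subunit 8, at 2023, 1999 and 2050.1 TPM. By mean TPM it ranked 32 of 24411 genes. Cox4i1, the ubiquitous form of subunit 4, came next among these genes at 909.9 ± 47.9 TPM, followed by Cox6c at 819 ± 59.6 and Cox5b at 728 ± 27.8 TPM (SD, n = 3 each). Cox5a, Cox7b2 and Cox6b2 lay close together at 551 ± 21.2, 547 ± 29.4 and 535 ± 24.4 TPM, differences smaller than their spread. Cox7c followed at 498 ± 23.5 TPM, Cox6a1 at 349 ± 25.0 and Cox7a2 at 323 ± 5.05 TPM (SD, n = 3 each). Summed over isoforms, transcripts for the 10 nuclear-encoded subunits were thus unequal. Subunit 8 had 2092 ± 25.4 TPM and every other subunit 332 to 910.4 TPM in libraries labelled WT. These ranks rest on the division by effective length, which is small for short transcripts. In counts scaled only to library size (CPM), Cox8c (476 bases) was at 320 ± 4.64 and Cox4i1 (741 bases) at 300 ± 9.06 in libraries labelled WT (SD, n = 3 each).

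**Figure D1:**
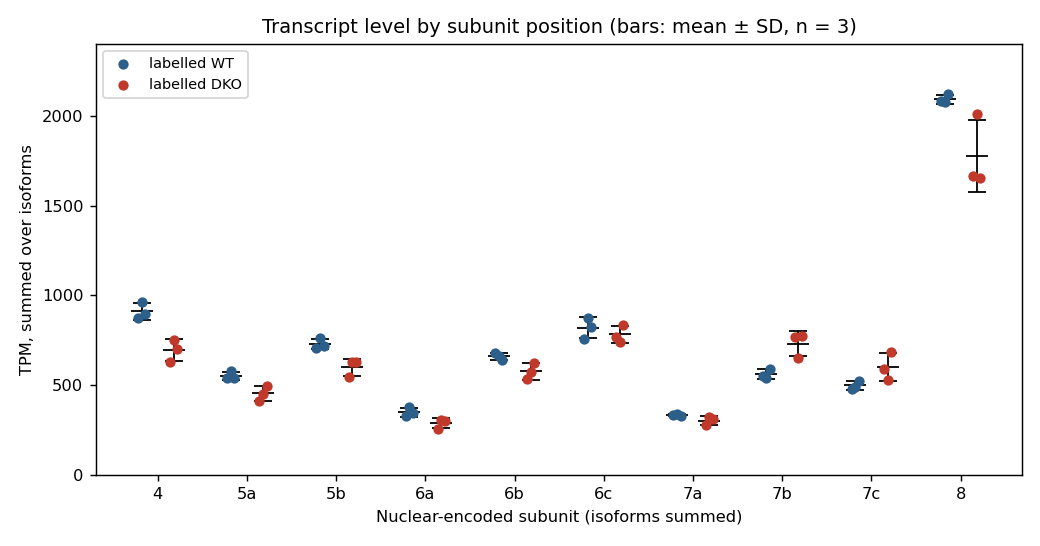
Summed TPM (linear axis) of each nuclear-encoded subunit of cytochrome c oxidase, isoforms added, in each library; points are libraries, bars the mean ± SD of 3. Subunit 8 lies above all others, and subunits 7b and 7c are the ones at which all 3 libraries labelled DKO lie above all 3 labelled WT.

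Testis isoforms were the main transcript at 3 of the subunits. At subunit 8, Cox8c made up 95.5% to 97.2% of the TPM of Cox8a, Cox8b and Cox8c, and exceeded the ubiquitous Cox8a by 21.0 to 34.8 times. Cox8a itself stood at 58.1, 76.1 and 71.4 TPM in the libraries labelled WT. No fragment was assigned in any library to Cox8b, the heart and muscle form. A count of 0 allows up to 0.0447 to 0.112 CPM, counts scaled to the library's size (3 counts of each library's total, for counting error only).

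At subunit 7b, Cox7b2 held 96.5% to 98.9% of the TPM of Cox7b and Cox7b2. The ubiquitous gene, Cox7b, lies on the X chromosome (chrX:106015700-106022450 in RefSeq GRCm38.p6) and the testis gene on chromosome 5 (chr5:71442823-71548205). Cox7b was at 8.40, 9.52 and 11.3 TPM in libraries labelled DKO and at 8.30, 18.8 and 12.5 TPM in those labelled WT. The groups overlapped, and WT replicate 2 stood above the other 5 libraries.

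At subunit 6b, the testis form shared the tissue with the ubiquitous one to a larger extent. Cox6b2 held 78.4% to 82.9% of the summed TPM, 3.63 to 4.86 times the level of Cox6b1. Both genes lie on chromosome 7, Cox6b2 at chr7:4751792-4753094 and Cox6b1 at chr7:30616971-30626114. Cox6b1 was at 116, 143 and 118 TPM in the libraries labelled WT, against 563, 520.3 and 521 TPM for Cox6b2.

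The other 3 families with isoforms were made up almost wholly of the ubiquitous form. Cox4i2, the lung form of subunit 4, had 6, 9 and 11 counts in libraries labelled DKO and 4, 3 and 7 in those labelled WT, and at most 0.0851% of the TPM of its family. Cox6a2, the heart and muscle form of subunit 6a, had 0, 0 and 1 counts with the DKO label and 1, 1 and 2 with the WT label. Cox7a1, the heart and muscle form of subunit 7a, was at 6.91 to 8.00 TPM in libraries labelled DKO and 8.15 to 10.7 TPM in those labelled WT, or 2.16% to 3.17% of the TPM of Cox7a1 and Cox7a2. The 6 muscle markers together summed to 2.55 to 2.72 TPM with the DKO label and 2.78 to 3.24 TPM with the WT label. Outside complex IV, Cyct held 89.4% to 92.7% of the TPM of Cycs and Cyct.

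**Figure D2:**
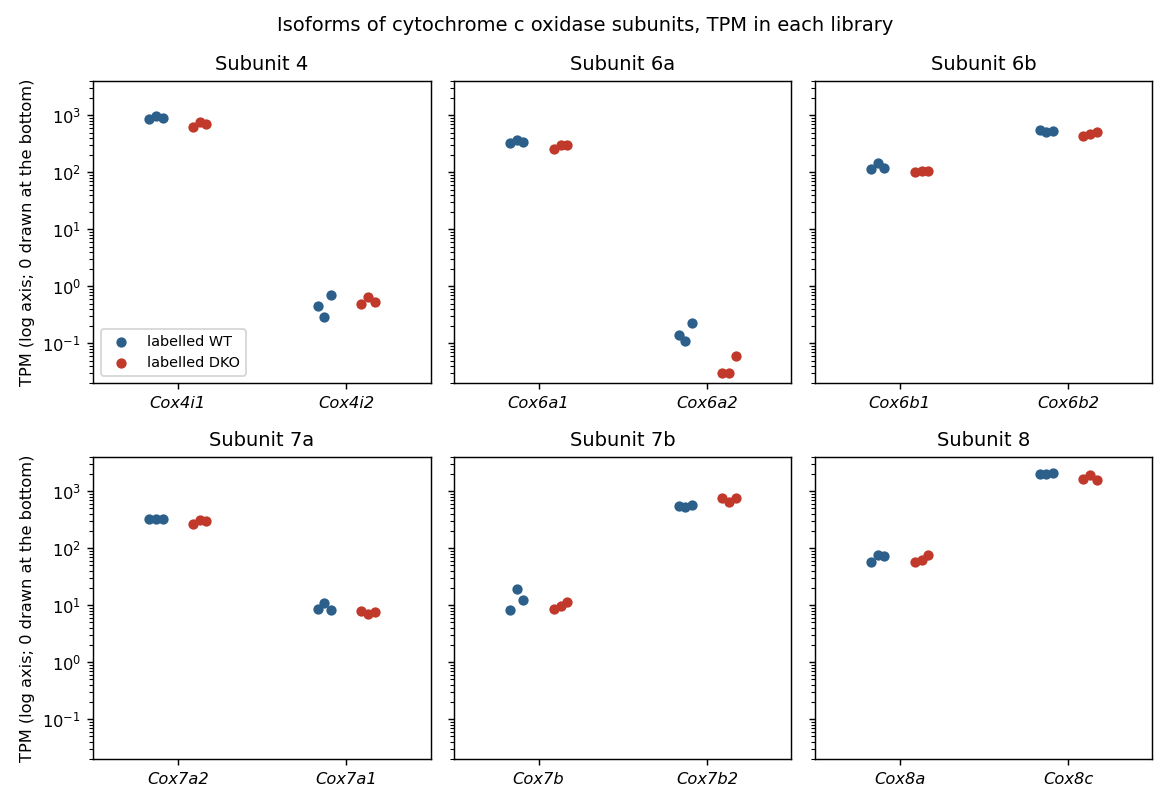
TPM (log axis, with listed values of 0 drawn at the bottom) of the isoforms of 6 subunits in each of 3 libraries labelled WT and 3 labelled DKO; each point is a library. Cox6b2, Cox7b2 and Cox8c lie above their ubiquitous partners, while Cox4i2, Cox6a2 and Cox7a1 lie far below theirs; Cox8b, at 0 in all libraries, is not drawn.

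The transcripts of these isoform pairs had no long stretch of sequence in common. Between the coding sequences of Cox8a and Cox8c 51.7% of aligned bases were identical, between Cox6b1 and Cox6b2 61.5%, and between Cox7b and Cox7b2 65.1% (GENCODE M21 transcripts). The longest identical run between any transcripts of the 3 pairs was 9, 14 and 11 bases respectively. None of these 6 genes had a fractional expected count in any library. Fractional counts occurred in at least 5 libraries for Cox7c, Cox11, Cox15 and Cox16, whose values are therefore less certain. The RefSeq spans of Cox4i2, Cox6a2, Cox7a2, Cox7c, Cox10, Cox11, Cox15, Cox16 and Cox20 overlap those of other genes, and without stated strand handling reads of the overlapping genes may be mixed.

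Promoters of the 2 testis forms that have an entry in the RefSeq promoter table are shown with those of their ubiquitous partners, because the isoforms of these pairs differ in level by several-fold or more. The table held entries for 20 of the 27 genes, and Cox8c was not among them. Each sequence is the 150 bases before the annotated transcription start in GRCm38.p6, read 5′ to 3′ on the strand of the gene. Capitals mark the letters CCAAT (the CCAAT box), CGGAAG (an ETS factor core), TGACG (a cyclic AMP response half-site), TATAAA (the TATA box) or the palindromic core of NRF1 sites on either strand.
Cox6b1 (ubiquitous, chr7:30626115-30626264, minus strand): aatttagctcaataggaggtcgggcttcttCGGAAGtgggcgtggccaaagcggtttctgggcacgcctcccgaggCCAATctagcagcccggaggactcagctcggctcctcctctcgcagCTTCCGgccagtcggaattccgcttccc
Cox6b2 (testis, chr7:4753095-4753244, minus strand): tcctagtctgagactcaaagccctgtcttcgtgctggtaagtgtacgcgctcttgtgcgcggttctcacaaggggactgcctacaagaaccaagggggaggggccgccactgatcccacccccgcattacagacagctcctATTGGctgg
Cox7b (ubiquitous, chrX:106015550-106015699, plus strand): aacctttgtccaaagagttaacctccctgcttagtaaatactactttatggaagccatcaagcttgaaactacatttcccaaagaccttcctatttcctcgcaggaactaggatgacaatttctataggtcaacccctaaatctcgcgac
Cox7b2 (testis, chr5:71548206-71548355, minus strand): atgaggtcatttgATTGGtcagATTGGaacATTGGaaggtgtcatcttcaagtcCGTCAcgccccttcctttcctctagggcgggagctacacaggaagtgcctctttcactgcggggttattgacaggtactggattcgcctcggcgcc

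In these windows Cox7b2 had 3 CCAAT boxes in reverse orientation, beginning 137, 128 and 120 bases before the start, and 1 cyclic AMP response half-site 96 bases before it. Cox6b2 had 1 reversed CCAAT box 9 bases before the start and no ETS core, whereas Cox6b1 had 2 ETS cores and 1 CCAAT box. Cox7b had no match in the 150 bases. Further out, within 250 bases, Cox7b held CCAAT, Cox7b2 TATAAA and Cox6b1 TGACG. Over 250 bases before the start, 33.8% of the 32851 promoters in the table held CCAAT, 13.6% CGGAAG, 17.8% TGACG, 12.4% TATAAA and 0.782% the NRF1 core. Of the 21 entries for these genes, 9 held the CCAAT box, 8 the ETS core, 6 the cyclic AMP half-site, 2 the TATA box and 1 (Cox6a1) the NRF1 core. Matches describe the letters only, and binding was not measured.

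The genotypes were then compared for all genes on expected counts, the number of fragments assigned to each gene. Of the 27 genes, 24 passed the filter on low counts, and Cox4i2, Cox6a2 and Cox8b did not. Of the 24, 8 fell in libraries labelled DKO and 0 rose (edgeR quasi-likelihood test, Benjamini-Hochberg adjusted p under 0.05 over all tested genes). In the same test 10.8% of all 17110 genes were called, 5.1% lower and 5.75% higher. At an unadjusted p under 0.05, 11 of the 24 were lower and 2 higher, against 14.8% and 16.9% of all tested genes. DESeq2 called 10 lower and 2 higher, against 7.59% and 9.61% of all genes. The median log2 fold change of the 24 was -0.25, against -0.0042 for all tested genes. In whole tissue, fewer cells of a type and less RNA per cell cannot be told apart.

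The 8 genes were 7 of the 14 tested subunits and 1 assembly factor. Among subunits, the main isoforms at positions 4, 5a, 5b, 6a, 6b and 8 fell. For Cox4i1, normalized counts were 192, 248 and 219 CPM (counts scaled to the same library size) in libraries labelled DKO and 293, 310.3 and 297 CPM in those labelled WT. The highest library labelled DKO was thus below the lowest labelled WT, with a log2 fold change of -0.45 ± 0.0908 (SE; adjusted p = 0.0263, edgeR). Cox8c was at 201, 284 and 216 CPM against 319, 315 and 325 CPM (log2 fold change -0.45 ± 0.112, SE; adjusted p = 0.0358, edgeR). Its values were also separate, with DKO replicate 2 nearest to the libraries labelled WT. In CPM all libraries labelled DKO were below all labelled WT for 13 of the 24 genes and above for 4, against 17.5% and 18.4% of all tested genes.

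Both isoforms of subunit 6b fell, with log2 fold changes of -0.45 for Cox6b1 and -0.33 for Cox6b2 (adjusted p = 0.0333 and 0.0479, edgeR). The log2 fold changes of Cox5a and Cox5b, which have no tissue isoform, were -0.36 and -0.42, and that of Cox6a1 was -0.43 (edgeR adjusted p = 0.0349, 0.0297 and 0.0353). Cox17, the copper chaperone that supplies the enzyme's copper centres, fell as well (log2 fold change -0.36; adjusted p = 0.0400, edgeR). Cox6c, Cox7a1, Cox7a2, Cox7b and Cox8a also had negative log2 fold changes, from -0.67 to -0.19, and did not pass the test. DESeq2 called Cox6c lower (adjusted p = 0.0269). The count of genes that fell in the edgeR test changed when a library was left out. It was 0 without DKO replicate 1, WT replicate 2 or WT replicate 3, where 11, 10 and 11 of the 24 genes were lower at an unadjusted p under 0.05. Of all tested genes, 1820 of 17097, 1958 of 17403 and 2005 of 17431 were lower at that level. The median log2 fold change of the 24 was -0.21, -0.19 and -0.23. In these fits of 5 libraries the calls over all genes also dropped, to 11, 13 and 7. The count of genes that fell was 4 without DKO replicate 2, and 9 and 10 without WT replicate 1 and DKO replicate 3.

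Because the fragment lengths differed between the groups, the same test was run with an offset from the deposited effective lengths, the number of positions a fragment can take on each transcript in each library. With this offset 1 gene fell, Cox4i1, and 3 rose: Cox7b2, Cox7c and Cox20 (edgeR adjusted p under 0.05, where 9.71% of all genes were called, 4.12% lower and 5.59% higher). The median log2 fold change of the 24 genes became -0.07. Across these genes the correlation of log2 fold change with transcript length (Spearman's rho, a description over 24 genes measured in the same libraries) was 0.33 without the offset and 0.0035 with it. The offset is itself computed from transcript length, so this change is no separate test of the role of length. Limma on log2(TPM + 1) called Cox4i1 lower and Cox7b2 and Cox20 higher. It called 4.3% of all genes, 2.67% lower and 1.63% higher.

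**Figure D3:**
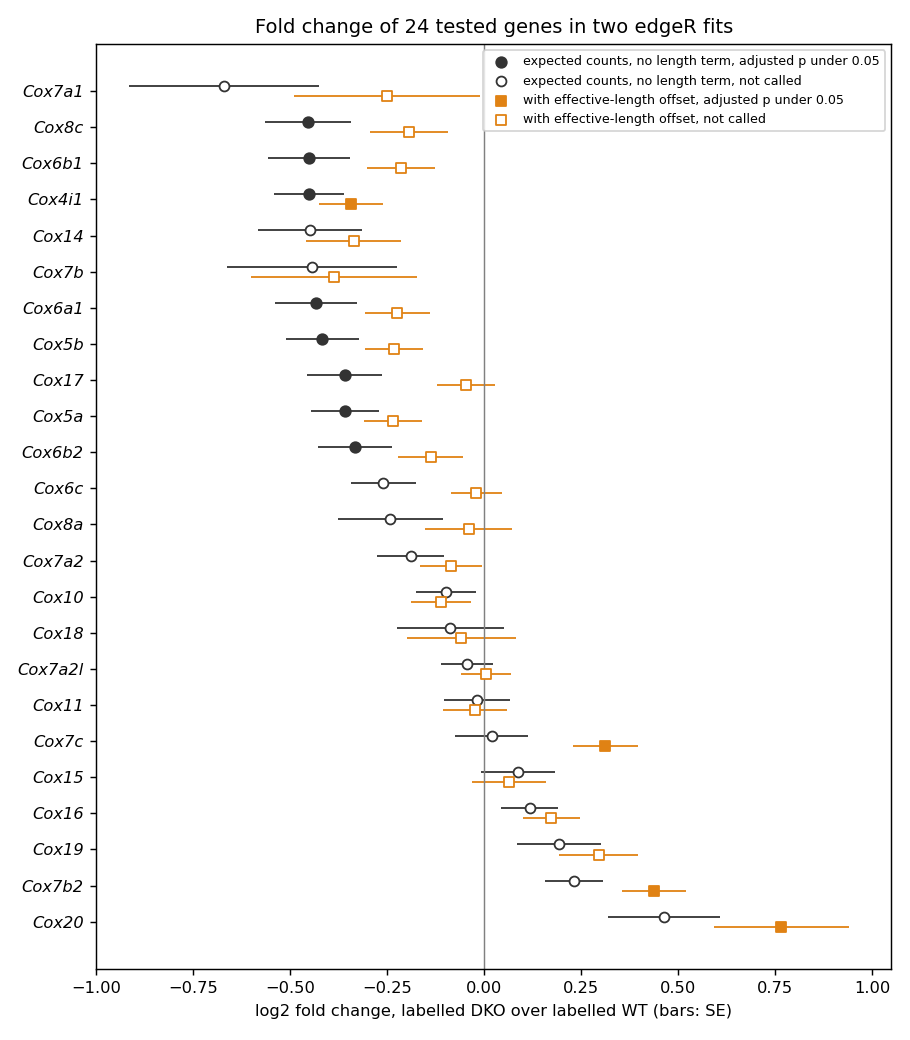
Log2 fold change with SE (horizontal axis, labelled DKO over labelled WT) of the 24 tested genes in the edgeR fit on expected counts (circles) and in the fit with an effective-length offset (squares); filled symbols passed an adjusted p of 0.05. Most short subunit genes moved toward 0 with the offset, Cox4i1 stayed below 0, and Cox7b2, Cox7c and Cox20 lay further above it.

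Cox4i1 was the 1 gene called lower in both fits. It stood at 630.15, 751 and 698 TPM in libraries labelled DKO and 870.3, 963 and 896 TPM in those labelled WT, so the groups did not overlap. Its mean level with the DKO label was 76.2% of that with the WT label. With the offset its log2 fold change was -0.34 (SE 0.0824; edgeR adjusted p = 0.0367). Without DKO replicate 1, WT replicate 2 or WT replicate 3 that adjusted p was 0.131, 0.0991 and 0.111, with log2 fold changes of -0.30, -0.34 and -0.35. Those 3 fits with the offset called 9, 14 and 5 genes in all.

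The remaining genes that fell on expected counts kept negative values with the offset and no longer passed. Cox5a and Cox5b had log2 fold changes of -0.24 and -0.23 (edgeR adjusted p = 0.0629 and 0.0673), and Cox6a1, Cox6b1, Cox8c and Cox6b2 lay between -0.22 and -0.14 (0.0965, 0.123, 0.211 and 0.284). Cox17 was at -0.05 (0.705). Cox5a was at 412, 452 and 497 TPM with the DKO label and 539, 576 and 539 TPM with the WT label, and Cox5b at 546, 627 and 627 TPM against 707, 759.8 and 718 TPM. Both belong to the part of the enzyme that faces the matrix, and both were separate by a clear gap. Cox6a1 was at 258, 308 and 302 TPM against 328, 377 and 343 TPM. Cox6b1 was at 101, 106 and 107 TPM against 116, 143 and 118 TPM. Cox6b2 was at 431, 465 and 518 TPM against 563, 520.3 and 521 TPM, where the groups nearly touched.

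Cox17 overlapped, at 287, 276 and 307 TPM against 281, 345 and 301 TPM. Overlap was also seen for Cox6c, at 769.98, 739 and 836 TPM against 757, 876 and 824 TPM, and for Cox8a, at 57.4, 60.9 and 75.0 TPM against 58.1, 76.1 and 71.4 TPM. Cox7a2 was at 268, 313 and 303 TPM against 325, 327 and 317 TPM, separate but with a log2 fold change of -0.19 on expected counts (adjusted p = 0.160, edgeR). Apart from Cox17, the genes called on expected counts all had every library labelled DKO below every library labelled WT in TPM. This held for 11 of the 24 genes, and the reverse for 5, against 18.2% and 15.0% of all tested genes. Cox8c, for example, stood at 1607, 1947 and 1578 TPM against 2023, 1999 and 2050.1 TPM. Its spread was larger with the DKO label (SD 205) than with the WT label (SD 25.7), and DKO replicate 2 lay close to the libraries labelled WT.

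The subunit with the clearest difference in the other direction was 7b. Cox7b2, its testis form, was at 759.5, 639 and 760.35 TPM in libraries labelled DKO and at 542, 520.2 and 578 TPM in those labelled WT. All values with the DKO label were above those with the WT label, and the mean was 132% of the WT level. The log2 fold change was 0.44 with the offset (SE 0.0822; edgeR adjusted p = 0.0276) and 0.23 without it (SE 0.0760; adjusted p = 0.0665), so the call required the length term or another tool: DESeq2 on the counts called it as well. Without DKO replicate 1, WT replicate 2 or WT replicate 3 the adjusted p with the offset was 0.116, 0.0868 and 0.105. The log2 fold changes of the other testis forms, Cox8c and Cox6b2, were negative with and without the offset, and the difference between the forms was not tested. Summed, the 3 testis forms made up 39.7% to 43.9% of the TPM of all subunits in the 6 libraries, 42.7% ± 1.68 with the DKO label and 41.4% ± 1.56 with the WT label (SD, n = 3 each). All subunits together summed to 6802 ± 311 TPM with the DKO label and 7501 ± 168 TPM with the WT label (SD, n = 3 each), without overlap.

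Cox7c, which has no tissue isoform, was at 587, 529 and 684 TPM with the DKO label and 478, 491 and 524 TPM with the WT label. The nearest values of the groups, 529 and 524 TPM, were almost equal. Its log2 fold change was 0.31 with the offset (SE 0.0835; edgeR adjusted p = 0.0433) and 0.02 without it (SE 0.0938; adjusted p = 0.908). It was -0.09 without DKO replicate 3 and -0.03 without WT replicate 1 when no offset was used. With the offset it passed in 1 of the 6 fits that left out a library, the one without DKO replicate 2 (0.0499). Its counts were fractional in all 6 libraries.

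**Figure D4:**
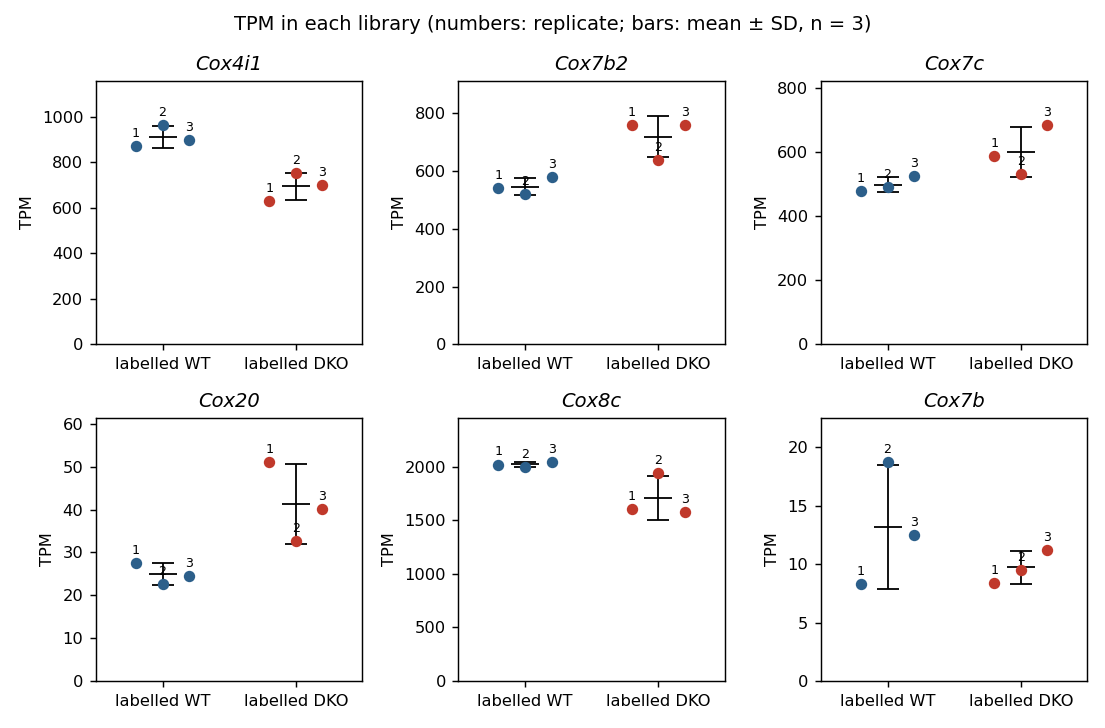
TPM (linear axes from 0) of the 4 genes called with the effective-length offset and of Cox8c and Cox7b, in each library; numbers give the replicate and bars the mean ± SD of 3. Cox4i1 is lower and Cox7b2 and Cox20 higher in all 3 libraries labelled DKO, Cox7c is separate by a narrow gap, and WT replicate 2 stands apart for Cox7b.

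Among the 9 assembly factors, Cox20 had the largest difference. Cox20 is a chaperone for the mitochondrially encoded subunit Cox2. It was at 51.2, 32.7 and 40.1 TPM with the DKO label and 27.7, 22.7 and 24.6 TPM with the WT label, with no overlap and a mean of 166% of the WT level. DKO replicate 1, whose fragments were the longest (317 bases), had the highest value. The log2 fold change was 0.77 with the offset (SE 0.174; edgeR adjusted p = 0.0341) and 0.46 without it (SE 0.144; adjusted p = 0.0578). Without DKO replicate 1, WT replicate 2 or WT replicate 3 the adjusted p with the offset was 0.138, 0.117 and 0.109. The transcript is short (448 bases), its libraries held 102 to 322 counts, and the RefSeq span of the gene overlaps that of Hnrnpu.

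Of the other assembly factors, none passed either edgeR fit apart from Cox17. Cox14, which acts in the synthesis and assembly of the mitochondrially encoded Cox1, was at 20.6, 25.3 and 27.0 TPM against 30.8, 36.5 and 28.3 TPM. The groups were separate, and the log2 fold change was -0.45 on expected counts (edgeR adjusted p = 0.0520). DESeq2 called Cox14 lower (adjusted p = 0.0178), as did edgeR with no low-count filter (adjusted p = 0.0416). Cox19, a copper-handling factor, was at 25.4, 25.2 and 30.9 TPM against 22.5, 23.5 and 22.6 TPM, again separate but in the other direction (log2 fold change 0.29 with the offset, edgeR adjusted p = 0.0789). Cox10 and Cox15, the enzymes of heme A synthesis, had log2 fold changes of -0.10 and 0.09 (edgeR adjusted p = 0.411 and 0.562). Cox11, Cox16 and Cox18 lay between -0.09 and 0.12. In TPM the groups were also separate for Cox10, lower with the DKO label, and for Cox16, higher with it. Cox7a2l, the supercomplex factor, was at 139 ± 3.94 TPM against 143 ± 10.4 TPM (SD, n = 3 each), a difference smaller than the spread. Summed over the 9 factors, TPM was 488 ± 26.3 with the DKO label and 491 ± 35.8 with the WT label (SD, n = 3 each).

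The balance between isoforms of a subunit was compared as a share of TPM in each library. Of these, 7 shares were tested with exact permutation of the labels (two-sided), where the smallest p that 3 and 3 libraries can give is 0.1. The share of Cox8c was 96.3% ± 0.777 with the DKO label and 96.7% ± 0.445 with the WT label (SD, n = 3 each; exact permutation p = 0.5, adjusted over the 7 shares 0.583). That of Cox6b2 was 81.8% ± 0.986 and 81.0% ± 2.32 (SD, n = 3 each; exact p = 0.9, adjusted 0.9). Neither difference was larger than the spread between libraries.

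Cox7b2 held 98.9%, 98.5% and 98.5% of its family with the DKO label and 98.5%, 96.5% and 97.9% with the WT label, a difference of 1.03 percentage points (exact permutation p = 0.1, adjusted 0.233). The groups did not overlap, but the nearest values were 98.53% and 98.49%. Without WT replicate 2 the difference was 0.472 points. As a share of expected counts, which are not divided by length, the difference was 2.05 points (exact permutation p = 0.3). The share of Cyct was 90.4% ± 0.954 against 92.5% ± 0.230 (SD, n = 3 each; exact p = 0.1, adjusted 0.233), with all libraries labelled DKO below those labelled WT. The difference was -2.11 points by TPM and -8.997 points by expected counts. The shares of Cox4i2, Cox6a2 and Cox7a1 rested on genes of few counts and differed by 0.0264, -0.0397 and -0.248 percentage points (labelled DKO minus labelled WT; exact p = 0.3, 0.1 and 0.5; adjusted 0.525, 0.233 and 0.583).

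Other genes of the pathway were taken from a list of 27 assembly factors, structural partners and cytochrome c genes, of which 26 were found and tested. On expected counts 3 fell and 1 rose, in a test where 5.1% of all tested genes fell and 5.75% rose. Slirp, which binds and stabilizes mitochondrial mRNA, was at 343, 353 and 326 TPM with the DKO label and 378, 447 and 423 TPM with the WT label (log2 fold change -0.58; edgeR adjusted p = 0.0226). Ndufa4, a further subunit of complex IV despite its name, was at 67.4, 63.7 and 74.7 TPM against 72.8, 104.8 and 89.05 TPM (log2 fold change -0.58; edgeR adjusted p = 0.0299). Slirp was separate between the groups and Ndufa4 overlapped in TPM. Pet100, an assembly factor of complex IV, was at 16.2, 19.5 and 17.7 TPM against 22.8, 26.5 and 24.75 TPM (log2 fold change -0.46; edgeR adjusted p = 0.0296).

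The gene of this list that rose was Cycs, the somatic form of cytochrome c. It was at 35.5, 29.2 and 34.2 TPM with the DKO label and 24.5, 26.5 and 25.96 TPM with the WT label, with no overlap (log2 fold change 0.42; edgeR adjusted p = 0.0237). Cyct, the testis form, was at 310.4 ± 27.4 TPM against 316 ± 6.87 TPM (SD, n = 3 each), a difference smaller than the spread. With the effective-length offset 2 of the 26 genes passed, Pet100 and Cycs, at -0.42 and 0.40 (edgeR adjusted p = 0.0360 and 0.0276). Slirp and Ndufa4 did not (0.0661 and 0.0736). In that fit 9.71% of all tested genes were called, 4.12% lower and 5.59% higher. Without DKO replicate 1, WT replicate 2 or WT replicate 3 no gene of this list was called on expected counts, with 8, 7 and 10 of the 26 at an unadjusted p under 0.05 (edgeR). Of all tested genes, 3571 of 17097, 3793 of 17403 and 4326 of 17431 were at that level. Those fits called 11, 13 and 7 genes in all. The transcript of Cycs is long (3059 bases), unlike those of the subunits, and the part of fragment length in its rise was not tested. With mean fragment length as a further term, the log2 fold change of Cycs was 0.28 (edgeR adjusted p = 0.999). That fit called 1 of all 17110 genes.

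One library, WT replicate 2, was the highest of the 6 in TPM for 16 of the 24 tested genes, or 66.7%, against 37.1% of all tested genes. The 16 included every ubiquitous isoform (Cox4i1, Cox6a1, Cox6b1, Cox7a2, Cox7b and Cox8a), whereas none of the testis forms Cox6b2, Cox7b2 and Cox8c was highest there. The same library had the shortest fragments of the 6 (mean 230.4 bases), and the part of fragment length in this pattern was not tested. It also had the highest summed TPM of 8 Leydig cell markers, 3146 TPM, with 864 to 1969 in the other libraries. Its sum of 9 Sertoli cell markers was the highest as well, at 1177 TPM, with 633 to 1006 in the others. Leydig cells make steroids between the tubules, and Sertoli cells support germ cells within them.

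Some markers of somatic cells fell with the DKO label. Of the Sertoli markers 4 of 9 fell and 0 rose on expected counts, where 5.1% of all tested genes fell and 5.75% rose. Their summed level was 633 to 779 TPM with the DKO label and 979 to 1177 TPM with the WT label. Of the Leydig markers 3 of 8 fell and 0 rose, with sums of 864 to 1521 and 1499.5 to 3146 TPM, and of 5 peritubular myoid markers 1 fell, with sums of 64.3 to 75.2 and 75.4 to 111 TPM. The 7 spermatocyte markers summed to 4759 to 5062 TPM with the DKO label and 4584 to 4704 TPM with the WT label, where 2 rose. The 6 round spermatid markers summed to 24058 to 25319 TPM with the DKO label and 22458 to 23277 TPM with the WT label, without overlap. Of these 6, 0 fell and 0 rose, on expected counts as with the effective-length offset. Their median log2 fold change on expected counts was 0.0035. The 6 late spermatid markers overlapped, at 87481 to 96632 and 81338 to 91027 TPM, and 1 of them, Akap4, rose. With the effective-length offset 4 Sertoli, 2 Leydig and 2 peritubular myoid markers fell, against 4.12% of all tested genes. In that fit 1 spermatocyte and 1 late spermatid marker rose, against 5.59% of all tested genes. No spermatogonial, muscle, fat, macrophage or erythrocyte marker was called in either fit. All spermatogonial and macrophage markers were tested, but only 3 of 6 muscle, 4 of 5 fat and 2 of 3 erythrocyte markers passed the filter on low counts. No marker of the sets was at 0 in every library apart from Hbb-bs among 3 erythrocyte markers and Lcn5 and Lcn8. The part of these markers, and of depth, in the differences of the cytochrome c oxidase genes was not tested.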

How the data were processed

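RNA from testes was sequenced in 3 libraries labelled DKO and 3 labelled WT, grouped by the genotype label. Per the file headers, the deposited tables are gene-level RSEM output with 1 file per library. Each gene has a transcript length, an effective length, an expected count and values in TPM and FPKM. The submitters' processing notes name STAR 2.7.0f, RSEM 1.2.31, DESeq2 1.12.3 and mm10, with no roles. Read filters and strand handling are not given in the sources used here. The deposited expected count is RSEM's estimate of fragments per gene, and 92.9% to 93.4% of these were whole. TPM, as deposited, divides by effective length and scales each library to the same total. The FPKM values, which the authors deposited after division by length and library size, were not used.

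Expected counts were rounded. Genes passing filterByExpr were tested with edgeR 4.0.16 (TMM, quasi-likelihood, genotype as the only term, all 6 libraries), with Benjamini-Hochberg adjustment over 17110 genes. Calls required an adjusted p under 0.05. The SE is the absolute log2 fold change divided by the square root of F. Mean fragment length was read from the gap between the length and the effective length of genes above 3000 bases. The test was also run on simulated counts that held no difference in fragment length, so that run cannot address the effect of fragment length. No pair of libraries agreed within sampling noise (lowest chi-square divided by its degrees of freedom 6.21). Replicate numbers follow deposition order. The genes, lists and tests were chosen with earlier results of these data known. Named in full were members of isoform families, called genes, Cycs, Cyct, Ndufa4 and called genes of the partner list. Fdx2 is listed under an older symbol and Coa1 was not matched. Alternatives were other scaling and filters, DESeq2 1.42.0, limma 3.58.1 on log2(TPM + 1) and log2(TPM + 0.1), the effective-length offset, removal of each library's trend on gene length (mgcv 1.9.3), fragment length as a covariate, thinning, and leaving out each library. The offset combined with leaving out a library was added after the data were seen. Promoters came from RefSeq (GRCm38.p6, the build called mm10), and coding sequences from GENCODE M21, aligned with Biopython 1.88.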

Additional observations from a re-analysis of the deposited data

How the results depend on the processing

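The number of cytochrome c oxidase genes called lower, 8 on expected counts, was 1 with limma on log2(TPM + 1) and on log2(TPM + 0.1), 1 with the effective-length offset, 1 with the length trend removed and 0 with the fragment length as a covariate. In that last fit 0 genes were lower and 2 higher at an unadjusted p under 0.05, and the fit called 1 of all 17110 genes, with 545 at an unadjusted p under 0.05. Fragment length itself was separate between the groups. The number called higher, 0 on expected counts, was 1 with no filter, 2 with DESeq2, 2 on both TPM scales, 3 with the effective-length offset and 2 with the length trend removed. Leaving out a library gave 0 to 10 lower and 0 to 0 higher on expected counts. With the offset it gave 0 to 2 lower and 0 to 3 higher. The 0 calls without DKO replicate 1, WT replicate 2 or WT replicate 3 came with 8, 10 and 10 of the 24 genes at an unadjusted p under 0.05 in edgeR. Of all tested genes, 3405 of 17097, 3727 of 17403 and 4201 of 17431 were at that level, in fits that called 9, 14 and 5 genes in all. The median log2 fold change, -0.25, was -0.11 and -0.12 on the TPM scales, -0.0724 with the offset, -0.0725 with the length trend removed and 0.0133 with the covariate, and -0.35 to -0.19 without a library. Other partner genes called lower, 3 in the test on expected counts, numbered 5 with DESeq2, 1 on both TPM scales, 1 with the offset and 0 with the covariate, and 0 to 5 without a library. Those called higher, 1, numbered 0 on log2(TPM + 1), 0 with the covariate and 0 to 1 without a library. On log2(TPM + 1), 1 partner gene was higher at an unadjusted p under 0.05 (limma), and with the covariate 1 was higher and 1 lower (edgeR). Of all 17110 tested genes, 2095 were higher at that level on log2(TPM + 1), and 161 higher and 384 lower with the covariate.

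With the covariate, log2 fold changes reversed to 0.0414 for Cox6c, 0.46 for Cox7b, 0.33 for Cox8a, 0.0568 for Cox7a2l, 0.0204 for Cox10, 0.0270 for Cox14 and 0.0062 for Cox17. Cox7a2l reversed to 0.0045 with the offset and 0.0475 with the length trend removed, Cyct to 0.0188 and 0.0396 in the same fits, and Cox11 to 0.0042 after thinning. Without a library, Cox7c ranged from -0.0928 to 0.0793 on expected counts and up to 0.36 with the offset, and Cox11 from -0.0630 to 0.0419. DESeq2 size factors changed none of the 29 named genes' calls. By expected counts the isoform shares kept their direction, but the difference in percentage points was -8.997 against -2.11 for Cyct, 2.05 against 1.03 for Cox7b2 and -0.69 against -0.40 for Cox8c. Without a library, the difference in percentage points ranged from -0.46 to 1.81 for Cox6b2, from -0.72 to 0.0364 for Cox8c and from -0.45 to -0.0337 for Cox7a1. The cause of these changes was not tested. No paired analysis was possible because the replicate numbers follow deposition order and the labels pair no libraries. Genes under 10 counts per library, such as Cox6a2, are limited by depth.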
